A study of Homo sapiens with 2 samples.

Results

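The keratin genes described here were the 55 protein-coding genes whose symbol is KRT followed by a number and at most 1 letter, of 20037 protein-coding genes on the nuclear chromosomes of the RefSeq table for GRCh38.p14. Of these, 27 lay on chromosome 12 and 28 on chromosome 17. KRT222, a keratin-like gene on chromosome 17, met the rule and was kept. The assay was CUT&Tag with a pan-lactyllysine antibody, which binds lysines that carry a lactyl group on any protein. A transposase fused to protein A follows the antibody and inserts sequencing adapters into the DNA beside it. The cells were CAL27, an established line from a human oral squamous cell carcinoma. In the study, 1 library came from CAL27 cells given 10 mM lactate for 24 hours and held 15120031 tags, and 1 came from CAL27 cells with no treatment and held 15696147 tags. Nothing else in the labels separates the cells of both groups. With 1 library per group differences have no replicate check and no p-value, and all intervals are 95% intervals that cover counting error only.

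The headers of the peak lists go partly against the sample labels. In each list the run name, the input file and all peak names, 58929 in the lactate-labelled list and 49750 in the untreated-labelled one, carry the other sample's name. The name line of each header goes with the label instead: CAL27_la in the lactate-labelled list and CAL27 in the untreated-labelled one. The headers thus disagree within themselves. The samples are called the lactate-labelled library and the untreated-labelled library throughout, and every difference between them would turn round if the lists were exchanged. An antibody-free control was not used here, so tags cut from open chromatin alone cannot be told apart from tags at lactylated lysine. The peak lists held 50352 and 43680 regions.

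Keratins are the intermediate filament proteins of epithelial cells. A filament is built from pairs of a type II keratin, whose genes lie on chromosome 12, and a type I keratin, whose genes lie on chromosome 17, except for the type I gene KRT18, which sits beside its type II partner KRT8 at the edge of the chromosome 12 cluster. Basal cells of stratified epithelia make KRT5 and KRT14, cells that move up from the basal layer switch to KRT1 and KRT10 in epidermis or to KRT4 and KRT13 in oral mucosa, and wounded or fast-growing epithelium makes KRT6, KRT16 and KRT17. KRT8 and KRT18 are the pair of simple epithelia, and the remaining genes mostly serve the hair shaft and its sheaths.

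The promoters that overlapped a region are shown first. Of the 55 keratin genes 34 had an entry in the RefSeq promoter table (GRCh38.p14). Among these 34, the 250 bases before the start of transcription overlapped a peak region in KRT5 and KRT8 alone, in both libraries in each case. The other 21 keratins, among them KRT6A, KRT16 and KRT17, had no entry, so their promoters could not be searched. The same share over all promoters was not counted. The KRT5 window is chr12:52520395-52520644 and the KRT8 window chr12:52926470-52926719, both on the minus strand. The KRT8 start used here lies inside the annotated span of the gene, so other KRT8 promoters may exist and were not searched. The KRT10 window, chr17:40822615-40822864 on the minus strand, had no region in either library and is shown as a contrast, chosen after its values were seen. Sequences run from 5′ to 3′ and end at the base before the start, and capitals mark the bases that lay inside a region of both libraries.
KRT5: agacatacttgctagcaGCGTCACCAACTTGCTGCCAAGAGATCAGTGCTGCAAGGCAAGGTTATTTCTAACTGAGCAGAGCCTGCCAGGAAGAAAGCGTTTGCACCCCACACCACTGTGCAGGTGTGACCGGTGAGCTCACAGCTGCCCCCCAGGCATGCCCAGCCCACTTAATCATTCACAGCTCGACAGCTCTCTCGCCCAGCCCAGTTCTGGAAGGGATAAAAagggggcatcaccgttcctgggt
KRT8: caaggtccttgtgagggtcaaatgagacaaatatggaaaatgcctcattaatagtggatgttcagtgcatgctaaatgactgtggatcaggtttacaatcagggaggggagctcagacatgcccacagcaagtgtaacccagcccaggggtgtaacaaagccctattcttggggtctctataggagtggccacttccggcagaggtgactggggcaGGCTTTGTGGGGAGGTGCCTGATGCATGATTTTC
KRT10: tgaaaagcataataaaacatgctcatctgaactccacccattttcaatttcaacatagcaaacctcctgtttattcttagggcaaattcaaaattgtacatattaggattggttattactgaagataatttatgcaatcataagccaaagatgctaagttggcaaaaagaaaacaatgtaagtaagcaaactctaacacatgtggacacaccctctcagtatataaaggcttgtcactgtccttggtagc

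In the KRT5 promoter the region covered bases 18 to 227 in the lactate-labelled library, with a pileup of 28 tags, and bases 12 to 227 in the untreated-labelled library, with 27 tags. In the KRT8 promoter it covered bases 82 to 250 in the lactate-labelled library, with 30 tags, and bases 217 to 250 in the untreated-labelled library, with 22 tags. Tags are counted at the summit of the region, and the KRT8 summit in the untreated-labelled library lay 105 bp downstream of the start, outside the window. The KRT5 stretch was thus nearly the same in both libraries, and the KRT8 stretch reached farther upstream in the lactate-labelled library. Motifs were searched on both strands, each by itself whether or not it overlapped another. TATAAA, the TATA box, was found in 20 of the 34 keratin promoters (58.8%), against 11.1% of 27305 promoters of all gene kinds. In KRT10 it spanned bases 222 to 227, 23 bases before the start. GGGCGG, the GC box bound by SP1, was found in 4 keratin promoters (11.8%), against 42.3% of all. CCAAT was found in 16 (47.1%), against 33.0%, among them KRT10 on the opposite strand at bases 108 to 112. The AP-1 motif TGANTCA was found in 0 of 34, against 6.60% of all. None of the 4 strings was present in the KRT5 or KRT8 windows shown.

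A region was assigned to a gene when it overlapped the gene widened by 5 kb on each side. By this rule 26 of the 55 keratin genes held a region in the lactate-labelled library (47.3%, exact Clopper-Pearson interval 33.7 to 61.2) and 28 in the untreated-labelled library (50.9%, interval 37.1 to 64.6). Over all protein-coding genes the shares were 73.5% and 68.9%. Keratin genes are short, with a median length of 6433 bp against 24115 bp. Over the 2059 protein-coding genes between 5218 and 9387 bp, the quartiles of keratin lengths, the shares were 61.5% and 55.3%. The keratin share thus lay below both backgrounds in both libraries, and its interval held the share of genes of like length in the untreated-labelled library but not in the lactate-labelled library. Both libraries had a region at 21 keratin genes (38.2%), against 64.8% of all genes and 50.7% of those of like length, and 22 keratin genes (40.0%) had none. Neighbouring keratins share windows, so genes are not independent counts. The order of the libraries turned with a narrower window: with no widening 12 keratin genes held a region in the lactate-labelled library and 11 in the untreated-labelled library, and with 1 kb 19 and 16. Over all protein-coding genes the share was higher in the lactate-labelled library at each of these settings, at 63.2% and 57.8% with no widening and 67.5% and 62.9% with 1 kb.

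**Figure D1:**
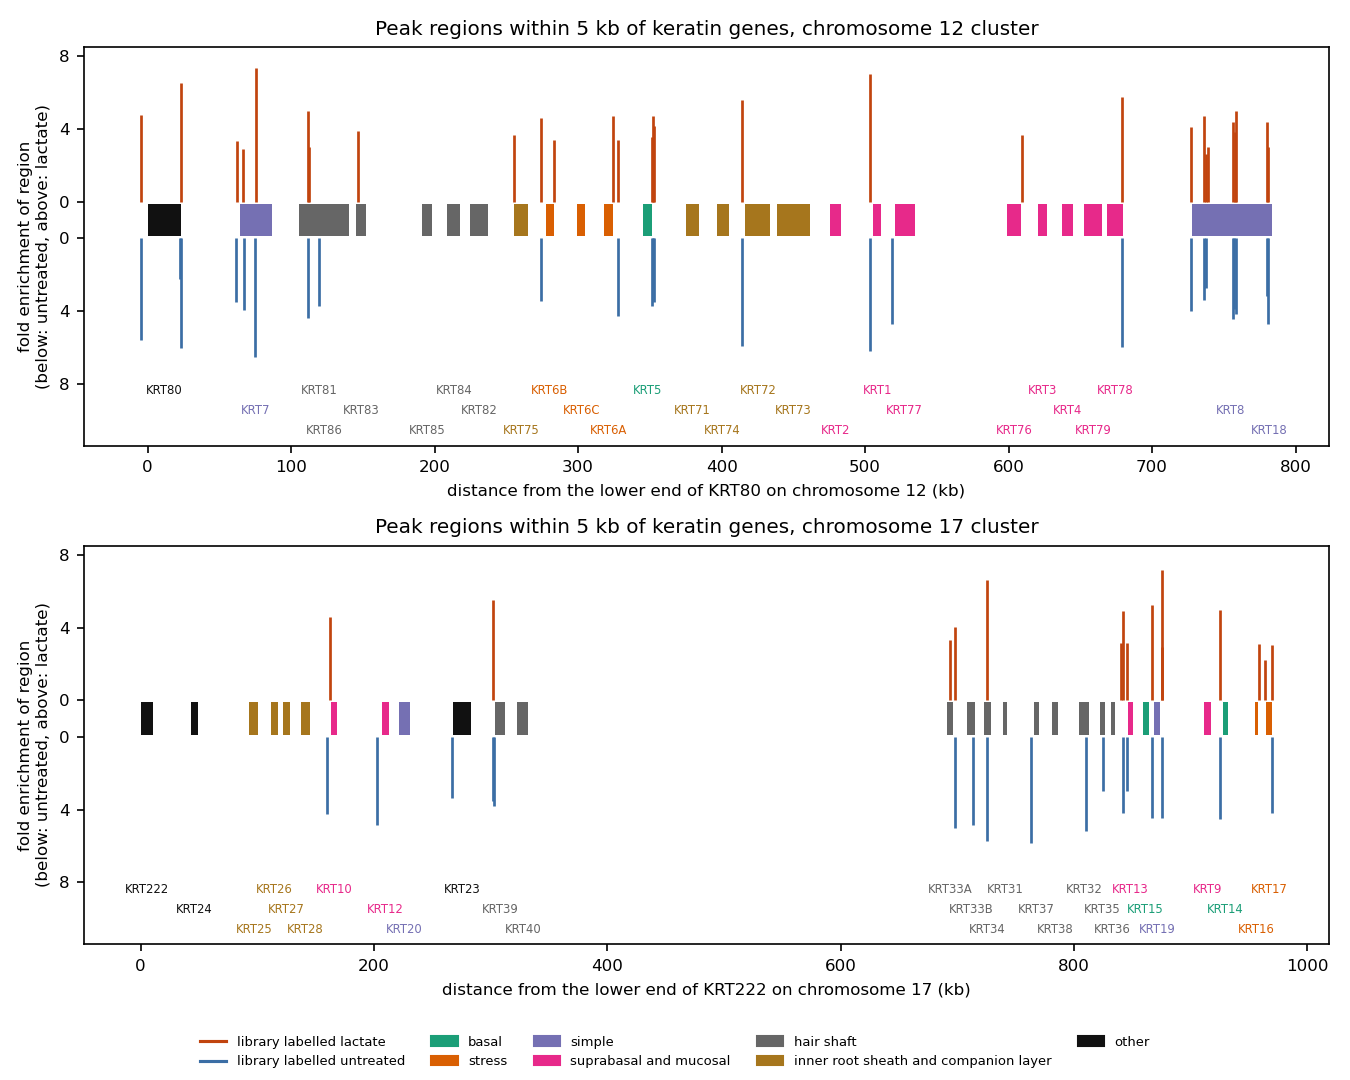
Positions of peak regions within 5 kb of a keratin gene along the chromosome 12 cluster (top) and the chromosome 17 cluster (bottom), as distance in kb from the lower end of the first keratin gene. Regions farther from every keratin gene are not drawn, so a blank stretch can hold regions. Lines above the gene bars are regions of the lactate-labelled library and lines below are those of the untreated-labelled library, with a length that gives the authors' fold enrichment over local background; gene bars are coloured by keratin class, and KRT81 lies inside KRT86 and the lower end of KRT18 inside KRT8. Regions crowd at KRT8 and KRT18 and at KRT13 to KRT19, and are missing around KRT85, KRT84 and KRT82 and around KRT73 and KRT2.

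The keratin windows of both clusters were set side by side. Windows of chromosome 12 keratins held 29 regions in the lactate-labelled library and 25 in the untreated-labelled library, which is 51.4 and 44.3 per Mb of merged window. Windows of chromosome 17 keratins held 15 and 17, which is 34.9 and 39.5 per Mb. Genes of like length had 57.9 and 47.5 per Mb, above both clusters, and all protein-coding genes had 22.9 and 19.5 per Mb, below both. By gene, 15 of 27 chromosome 12 keratins had a region in the lactate-labelled library (55.6%, interval 35.3 to 74.5) and 13 in the untreated-labelled library (48.1%, interval 28.7 to 68.1). Of the chromosome 17 keratins 11 of 28 had one in the lactate-labelled library (39.3%, interval 21.5 to 59.4) and 15 in the untreated-labelled library (53.6%, interval 33.9 to 72.5). The intervals of the clusters overlapped widely, and by share of genes the order of the clusters was not the same in both libraries.

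Within each cluster the regions were uneven. The gene KRT8, 52670 bp long in this annotation, had 9 regions in its window in the lactate-labelled library and 8 in the untreated-labelled library, more than any other keratin. On chromosome 12 the longest stretch with no region in either library was 89.1 kb (chr12:52583266-52672339) and held KRT72, KRT73 and KRT2. The next, 85.5 kb (chr12:52338931-52424381), held the hair keratins KRT85, KRT84 and KRT82, and another of 69.2 kb held KRT3, KRT4 and KRT79. On chromosome 17 the longest was 108.4 kb (chr17:40957734-41066183), which held KRT39, KRT40 and 11 genes of hair keratin-associated proteins. How common such stretches are in the rest of the genome was not counted, so these lengths have no background beside them. Of 44 keratin regions in the lactate-labelled library 20 overlapped a keratin gene body and 24 lay in the flanks alone, and of 42 in the untreated-labelled library 18 and 24 did. Each library had 4 regions that fell in the windows of more than 1 keratin. The 5 kb limit left some genes close to it. KRT36 was counted in the lactate-labelled library by a region 4.74 kb away, while the nearest region lay 6.11 kb from KRT83 in the untreated-labelled library, and 6.38 and 6.44 kb from KRT31 in the lactate-labelled library and the untreated-labelled library.

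**Figure D2:**
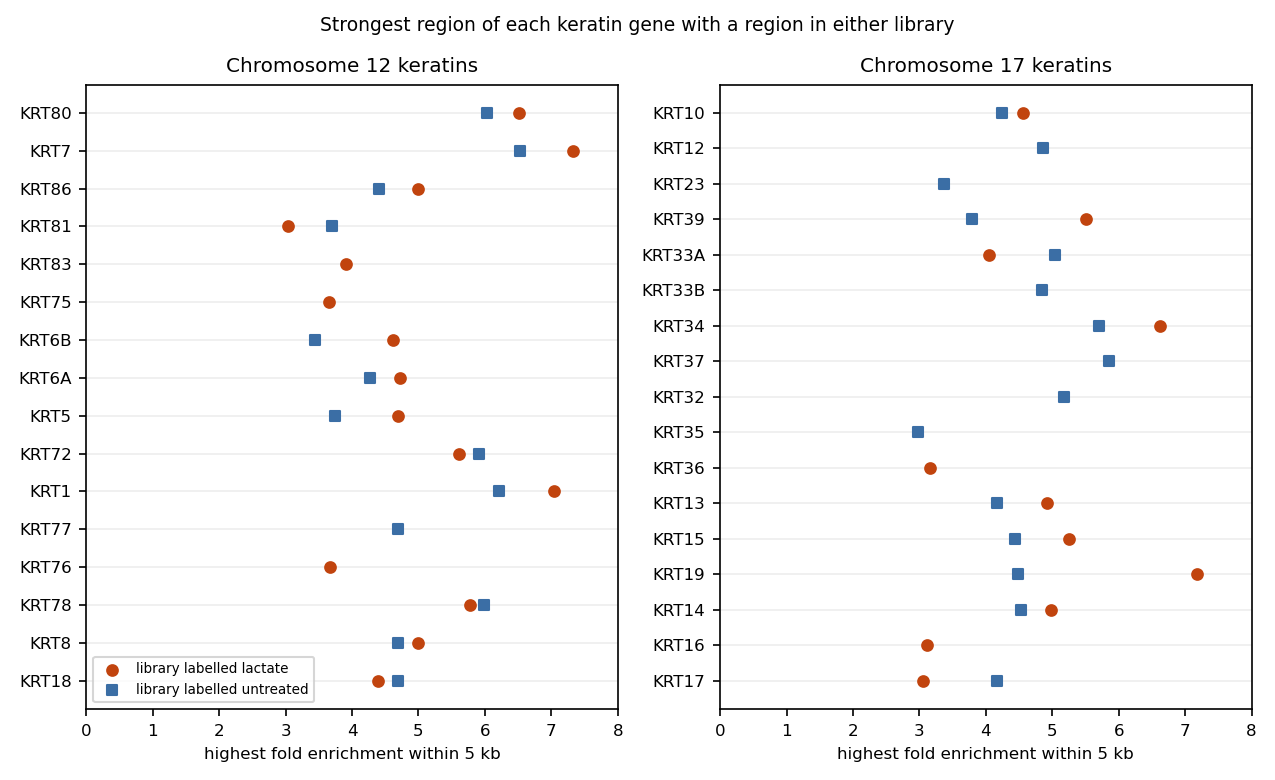
Highest fold enrichment, the authors' ratio of pileup to local background, of the regions within 5 kb of each of the 33 keratin genes with a region in either library, in chromosomal order. Circles are the lactate-labelled library and squares the untreated-labelled library; values rank genes within 1 library. KRT7 stood highest in both libraries, at 7.32 and 6.53, and rows with 1 point are genes with a region in 1 library alone.

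Ranked within each library by fold enrichment, the authors' own value for each peak, KRT7, KRT1 and KRT80 stood near the top in both. KRT7, a type II keratin of simple and glandular epithelia, carried its strongest region inside the gene, chr12:52243833-52244371 with a fold of 7.32 and 46 tags in the lactate-labelled library, and chr12:52243706-52244328 with 6.53 and 42 tags in the untreated-labelled library. This was the highest keratin value in each library. KRT19, a type I simple keratin, came next in the lactate-labelled library, where a region 2.00 kb above its upper end reached 7.18 with 30 tags. The same place had 4.48 with 19 tags in the untreated-labelled library. KRT1, the main type II keratin of suprabasal epidermis, had a region with its summit 2.23 kb below its lower end, with 7.04 and 19 tags in the lactate-labelled library and one at the same place with 6.21 and 17 tags in the untreated-labelled library. The other members of the 10 highest in the lactate-labelled library were KRT34 (6.62), KRT80 (6.51), KRT78 (5.77), KRT72 (5.61), KRT39 (5.50), and KRT15 (5.25), with KRT86 and KRT8 level at 5.00. In the untreated-labelled library the 10 highest after KRT7 and KRT1 were KRT80 (6.04), KRT78 (5.99), KRT72 (5.91), KRT37 (5.85), KRT34 (5.70), KRT32 (5.17), KRT33A (5.04) and KRT12 (4.87). Keratin regions had a median fold of 4.14 in the lactate-labelled library and 4.21 in the untreated-labelled library, against 4.81 and 4.59 for the 31959 and 27104 regions within 5 kb of any protein-coding gene.

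The basal keratins were marked in both libraries, 3 of 3 (interval 29.2 to 100), and this interval held the 64.8% of all genes. KRT5, which forms the basal filament with KRT14, had 3 regions upstream of its start in both libraries. In the lactate-labelled library their summits lay 151, 1026 and 1594 bp upstream with 28, 38 and 34 tags and folds of 3.58, 4.70 and 4.18. In the untreated-labelled library they lay 134, 1017 and 1623 bp upstream with 27, 20 and 26 tags and folds of 3.74, 2.74 and 3.52. The regions thus sat at the same places, and the middle one had the larger gap in tags. KRT14 had 1 region with its summit 2545 bp below its lower end in the lactate-labelled library, with 23 tags and a fold of 4.98, and 1 at 2565 bp in the untreated-labelled library, with 21 tags and 4.53. KRT15, another type I keratin of basal cells, was marked by a region above its upper end, chr17:41521714-41522680 with 45 tags in the lactate-labelled library and chr17:41521655-41522253 with 34 tags in the untreated-labelled library. That region also fell in the window of KRT19, so it cannot be given to 1 of these genes.

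Of the 5 stress keratins 4 held a region in the lactate-labelled library (80.0%) and 3 in the untreated-labelled library (60%), near the 73.5% and 68.9% of all genes, whose order is the same. KRT6A had a region with its summit 0.191 kb above its upper end in the lactate-labelled library alone, with 19 tags and a fold of 4.72, and one 3.36 kb above it in both, with 14 tags in the lactate-labelled library and 15 in the untreated-labelled library. KRT6B had a region just inside its upper end in the lactate-labelled library alone, with 8 tags and 3.38, and one 3.66 kb below its lower end in both, with 23 and 16 tags. KRT16, the type I partner of KRT6, had a region just above its upper end in the lactate-labelled library alone, with 21 tags and a fold of 3.12. KRT17 had a region at its upper end in both, with 22 tags and 3.06 in the lactate-labelled library and 29 tags and 4.17 in the untreated-labelled library. A further KRT17 region below the lower end was in the lactate-labelled library alone, with 20 tags and a fold of 2.21, the lowest of all keratin regions in that library. KRT6C had none in either library. In each of KRT6A, KRT6B and KRT16 the region near the upper end was called in the lactate-labelled library alone. KRT6A, KRT6B and KRT6C are near-identical copies, and KRT14, KRT16 and KRT17 have close pseudogene copies, so reads that fit several of them are uncertain. The input names in the headers hold the tags uni and dedup, and no header says how such reads were treated.

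The simple keratins were marked at 4 of 5 genes in each library (80.0%, interval 28.4 to 99.5), near the 73.5% and 68.9% of all genes. KRT7 had 3 regions in each library, of which the strongest, given above, overlapped between them. For KRT8, the type II partner of KRT18, the start of transcription in the promoter table lies inside the annotated span, and other starts were not searched. KRT8 had 3 regions around this start. In the lactate-labelled library their summits lay 1167 bp downstream, 45 bp upstream and 1005 bp upstream, with 35, 30 and 39 tags. In the untreated-labelled library they lay 1195 bp and 105 bp downstream and 1114 bp upstream, with 26, 22 and 23 tags. Further regions lay near the lower end and inside the annotated gene, of which one, chr12:52907833-52908043 with 27 tags and a fold of 3.03, was in the lactate-labelled library alone. KRT18 had 2 regions near its lower end in both libraries, which lay in the KRT8 window as well. The lower of them had 24 tags in the lactate-labelled library and 18 in the untreated-labelled library, and the upper 16 tags in the lactate-labelled library and 27 in the untreated-labelled library, so the order of the libraries differed between neighbouring sites. KRT20, a type I keratin of intestinal and urothelial cells, had no region in either library.

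Of the 12 suprabasal and mucosal keratins, 5 held a region in the lactate-labelled library and 6 in the untreated-labelled library, with 4 in both (KRT1, KRT10, KRT13 and KRT78). KRT10, the type I partner of KRT1, had 1 weak region in each library, with 8 tags in both, at different places: its summit lay 890 bp below the lower end of the gene in the lactate-labelled library and 4061 bp below it in the untreated-labelled library. KRT13, the type I keratin of mucosal suprabasal cells, had 2 regions below its lower end in both libraries, with 24 and 15 tags in the lactate-labelled library and 20 and 14 in the untreated-labelled library. Its type II partner KRT4 had none in either. The sites of KRT13 were thus shared, and those of KRT10 were not. KRT76, a type II keratin of oral epithelium, had a region in the lactate-labelled library alone, with 7 tags and a fold of 3.67. KRT77 and KRT12, the cornea keratin, had one in the untreated-labelled library alone, with 13 and 10 tags and folds of 4.70 and 4.87. KRT2, KRT3, KRT79 and KRT9 had none in either library.

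Hair shaft keratins held a region at 7 of 17 genes in the lactate-labelled library (41.2%, interval 18.4 to 67.1) and 9 of 17 in the untreated-labelled library (52.9%, interval 27.8 to 77.0). Genes of like length had 61.5% and 55.3%, inside these intervals, and all protein-coding genes had 73.5% and 68.9%. On chromosome 12 the hair shaft keratins with a region were 3 and 2 of 6, and on chromosome 17 they were 4 and 7 of 11. KRT34 had a region inside the gene in both libraries, with 19 tags in the lactate-labelled library and 16 in the untreated-labelled library. KRT39 was marked below its lower end in both, with 11 tags and a fold of 5.50 in the lactate-labelled library and up to 9 tags and 3.79 in the untreated-labelled library. KRT33A had a region above its upper end in both, with 10 tags in the lactate-labelled library and 12 in the untreated-labelled library, at places that did not overlap. The 4 type I hair keratins with a region in the untreated-labelled library alone were KRT37 with 19 tags and 5.85, KRT32 with 14 tags and 5.17, KRT33B with 11 tags and 4.84, and KRT35 with 8 tags and 2.98. KRT36 and the type II hair keratin KRT83 had one in the lactate-labelled library alone, with 12 tags and 3.16 and with 13 tags and 3.91. KRT81 and KRT86 overlap and are close copies, and each was marked in both libraries. The KRT81 regions lay at different places, 4.41 kb from the gene in the lactate-labelled library and inside it, with 11 tags, in the untreated-labelled library. KRT31, KRT38, KRT40, KRT82, KRT84 and KRT85 had none.

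The 9 keratins of the inner root sheath and companion layer had the lowest share of genes with a region, 2 genes in the lactate-labelled library and 1 in the untreated-labelled library. KRT72 was marked in both by a region below its lower end, with 24 tags in the lactate-labelled library and 21 in the untreated-labelled library. KRT75, of the companion layer, had a region in the lactate-labelled library alone, with 8 tags and a fold of 3.66. KRT25, KRT26, KRT27, KRT28, KRT71, KRT73 and KRT74 had none in either. Among the remaining 4 genes, KRT80 had the region with the highest pileup of any keratin in each library, at its upper end, with 53 tags in the lactate-labelled library and 49 in the untreated-labelled library. KRT23 had one in the untreated-labelled library alone, with 6 tags and 3.37, and KRT24 and KRT222 had none.

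**Figure D3:**
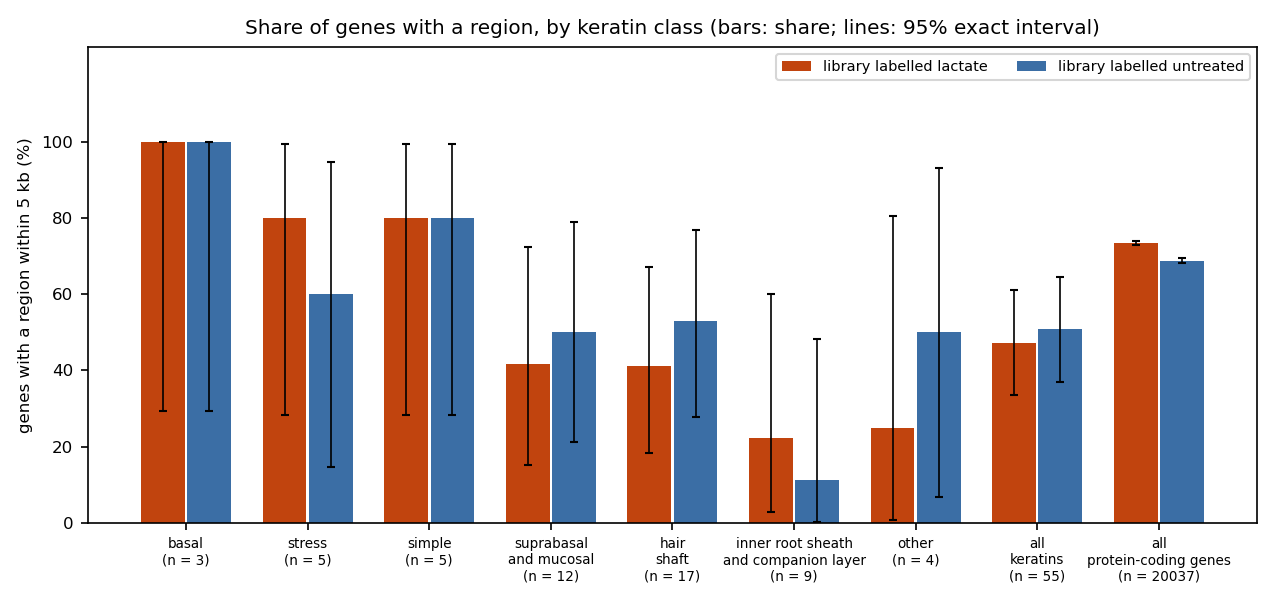
Percent of genes with a peak region within 5 kb, by keratin class, over all 55 keratins and over all protein-coding genes, for the lactate-labelled library (left bar) and the untreated-labelled library (right bar). Bars start at 0 and lines are 95% exact Clopper-Pearson intervals; basal, stress and simple keratins lie between 60% and 100%, and the inner root sheath class at 22.2% and 11.1%.

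At gene ends the order of the libraries was the other way round than over whole windows. A region overlapping 1 kb to both sides of either gene end was present at 14 keratins in the lactate-labelled library (25.5%, interval 14.7 to 39.0) and 8 in the untreated-labelled library (14.5%, interval 6.5 to 26.7), against 49.5% and 43.5% of all protein-coding genes. Genes of like length had 44.2% and 38.6%. Such a region was present in the lactate-labelled library alone at 8 of 55 keratins, against 9.70% of all genes and 181 of 2059 genes of like length. In the untreated-labelled library alone it was present at 2 of 55, against 3.74% and 65 of 2059. The 8 were KRT6A, KRT6B and KRT16 of the stress class, KRT10, KRT76 and KRT78 of the suprabasal class, KRT19 and KRT75. The 2 were KRT23 and KRT39. Stress keratins had such a region at 4 of 5 genes in the lactate-labelled library and 1 of 5 in the untreated-labelled library, and hair shaft keratins at 0 of 17 and 1 of 17. KRT78 had a region in both libraries at the same place inside the gene, which reached the 1 kb limit in the lactate-labelled library alone. KRT19 was alike: the region it shares with KRT15 overlapped between the libraries. That region lay 0.937 kb from KRT19 in the lactate-labelled library and 1.36 kb from it in the untreated-labelled library. The regions at KRT6B, KRT10, KRT75 and KRT76 had 8, 8, 8 and 7 tags, where the lowest pileup in either peak list was 6 tags.

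Within 5 kb, 5 keratins had a region in the lactate-labelled library alone (9.09%, against 8.69% of all genes and 10.8% of genes of like length). In the untreated-labelled library alone there were 7 (12.7%, interval 5.27 to 24.5, against 4.08% of all genes and 4.61% of genes of like length). The lactate-labelled ones were KRT83, KRT75, KRT76, KRT36 and KRT16. The untreated-labelled ones were KRT77, KRT12, KRT23, KRT33B, KRT37, KRT32 and KRT35, of which 6 lie on chromosome 17 and 4 are hair shaft keratins. The highest pileup at these genes was between 7 and 21 tags for the 5 genes and between 6 and 19 tags for the 7, and the lowest pileup in either peak list was 6 tags. The order of these counts changed with the settings. With a widening of 1 kb they were 9 and 6, against 8.93% and 4.28% of all genes, and at a fold of at least 5 they were 5 and 3, against 15.0% and 4.73%. Over all genes the share in the lactate-labelled library alone was the larger one at each of these settings. A gene without a region is one where no peak was called at the authors' threshold, which does not show that the mark was absent.

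Of the keratin regions 28 of 44 overlapped a region of the other list in the lactate-labelled library (63.6%, interval 47.8 to 77.6), against 62.0% of regions near any protein-coding gene, and 28 of 42 in the untreated-labelled library (66.7%, interval 50.5 to 80.4), against 74.0%. On chromosome 12 the counts were 20 of 29 and 20 of 25, and on chromosome 17 they were 8 of 15 and 8 of 17. At hair shaft keratins 3 of 8 and 3 of 10 regions overlapped, and at basal keratins 5 of 5 in each library.

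The 28 overlapping pairs allowed tags to be set side by side at 1 site. Pileups were divided by the library's tags. The ratio of the lactate-labelled library over the untreated-labelled library ran from 0.615 at the upper KRT18 site to 1.98 at a site inside KRT8, with a median of 1.24 over keratin pairs and 1.18 over 31557 pairs of the nuclear genome. It was above 1 in 25 of 28 keratin pairs (89.3%) and in 71.3% of all pairs. The exact interval excluded 1 at 3 pairs, before any allowance for 28 comparisons. No interval excluded 1.18, the median over all pairs, so no keratin pair was set apart from the general offset between the libraries. At the KRT8 site chr12:52904975-52905300 the pileup was 42 tags in the lactate-labelled library and 22 in the untreated-labelled library, a ratio of 1.98 (interval 1.16 to 3.49). At the middle KRT5 site it was 38 and 20 tags, a ratio of 1.97 (interval 1.12 to 3.58). At the KRT8 site upstream of the start it was 39 and 23 tags, a ratio of 1.76 (interval 1.03 to 3.09). The local background moved with these ratios at KRT8: it was 1.47 and 1.53 times as high per tag of library in the lactate-labelled library at the 2 KRT8 sites, against 1.14 at the KRT5 site and a median of 1.09 over all pairs. Its part in the result was not tested. KRT8 supplied 8 of the 28 pairs, so the pairs are not independent.

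**Figure D4:**
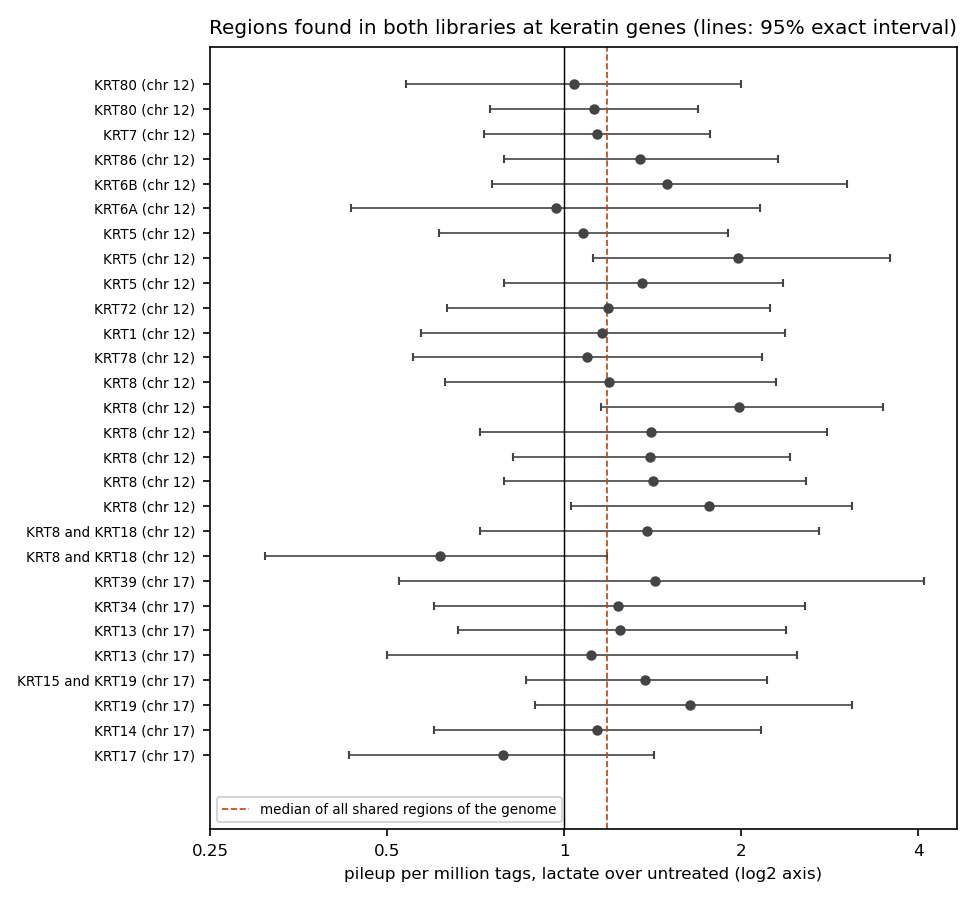
Ratio of pileup per 1000000 tags, lactate-labelled over untreated-labelled library, at the 28 sites where regions of both libraries overlapped at a keratin gene, in chromosomal order on a log2 axis. Lines are 95% exact intervals for counting error and the dashed line is the median over all shared regions, 1.18; the points lie between 0.615 and 1.98, and 25 of 28 lie above 1.

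The median local background was higher at regions of basal and simple keratins than at those of hair keratins in both libraries. Peaks were called without a control, so the local background comes from the same library and can hold tags of the peaks themselves. The background is the local tag density that the fold is taken over. It was recomputed from pileup and fold and scaled to 1000000 tags of the library. At basal keratin regions its median was 0.483 in the lactate-labelled library and 0.424 in the untreated-labelled library, and at simple keratin regions 0.414 and 0.316. Neighbouring regions share a background, and these medians rest on few loci. KRT5 supplied 3 of the 5 basal regions in each library, while the KRT14 region had 0.253 and 0.246. KRT8 supplied 9 of 15 simple regions in the lactate-labelled library and 8 of 13 in the untreated-labelled library. The region shared by KRT15 and KRT19 counted in both classes. At hair shaft regions it was 0.152 and 0.124, and at suprabasal regions 0.148 and 0.126, close to the medians over all regions of 0.146 and 0.135. The hair shaft regions were not alike, with medians of 0.410 and 0.242 on chromosome 12 and 0.134 and 0.113 on chromosome 17. Stress keratin regions had medians of 0.278 and 0.251. The highest values were 0.562 below KRT17 in the lactate-labelled library and 0.482 at KRT80 in the untreated-labelled library. A high background lowers the fold that a given pileup reaches: KRT17 with 20 tags had a fold of 2.21 in the lactate-labelled library, while KRT1 with 19 tags had 7.04. Hence the fold order of keratins given above is not an order of tags. What sets the local background, such as copy number, open chromatin or the tags of neighbouring peaks, was not tested.

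**Figure D5:**
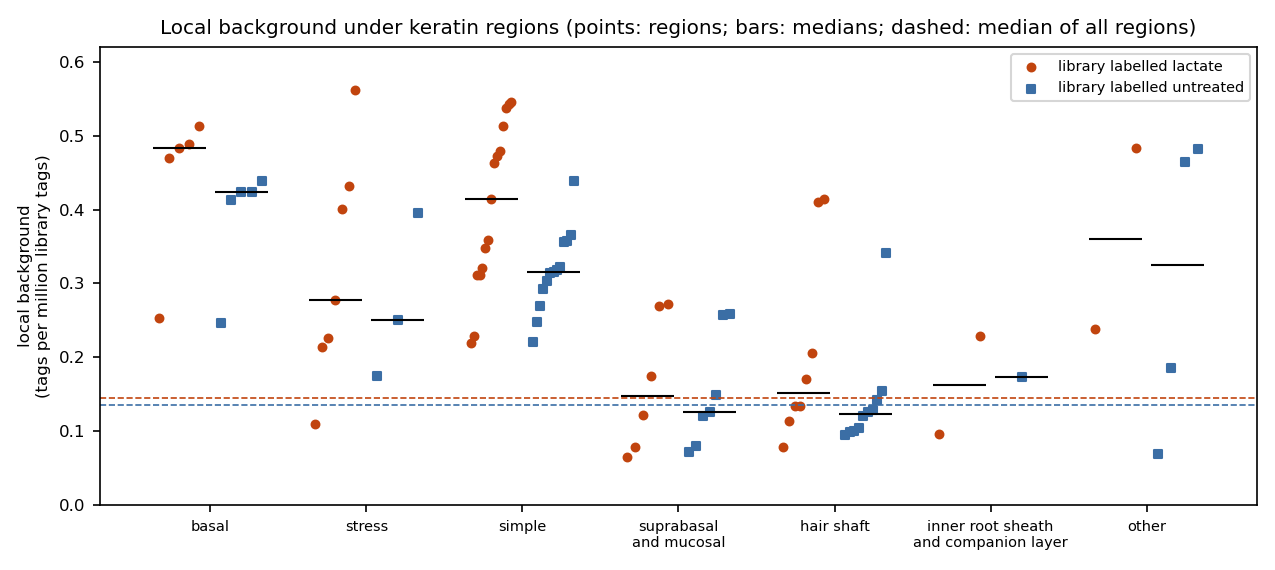
Local background under each keratin region, in tags per 1000000 library tags, by keratin class, for the lactate-labelled library (circles, left) and the untreated-labelled library (squares, right). Black bars are medians over regions and dashed lines are the medians over all regions of each library, 0.146 and 0.135; the medians of the basal class are 0.483 and 0.424 and those of the hair shaft class 0.152 and 0.124.

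Genes that work with keratins were set beside them. Of 16 genes whose proteins bind keratin filaments or are named for keratins, 12 held a region in the lactate-labelled library and 12 in the untreated-labelled library, 75.0% in each, against 73.5% and 68.9% of all protein-coding genes. Both libraries had one at 11 of them (68.8%, against 64.8%), so these shares were near the background. DSP, which ties keratin filaments to desmosomes, had 3 regions in each library, with highest folds of 8.65 in the lactate-labelled library and 5.30 in the untreated-labelled library. PKP1, a desmosome plaque gene, had 4 and 6 regions, and DST, which anchors keratins to hemidesmosomes, 15 and 16. FAM83H was marked in the lactate-labelled library alone and KRTDAP in the untreated-labelled library alone. FLG, TCHH and EPPK1 were marked in neither. The KRTAP genes of chromosome 17, which encode hair keratin-associated proteins and lie inside the type I cluster, held a region at 6 of 34 in each library (17.6%, interval 6.76 to 34.5). Squamous epithelium markers such as TP63 and DSG3 held one at 8 of 8 in each library, fibroblast markers at 2 of 6 and blood markers at 4 of 6 in each library. With 73.5% and 68.9% of all genes holding a region, the lists of 6 and 8 genes are too short to set apart from that share, and the count does not test the cell type.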

How the data were processed

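The 2 libraries were processed by the submitters. The submitters' processing notes name the build hg38 and the tools BWA, MACS2 2.1.0 and fastp 0.20.0. Per the file headers, MACS 2.1.0.20150420 called peaks in each library separately, without a control, keeping q values to 0.05, after moving tags by a shift of -100 bp and extending them to 200 bp, so that each tag is centred on its transposase cut. Each deposited list holds the pileup at the summit (a signal: tags, unscaled by the authors) and the authors' fold enrichment (a ratio of pileup to local background).

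Summits of the same start and end were collapsed to 1 region with the summit of highest fold. Regions were assigned to genes of the RefSeq table (GRCh38.p14) by an overlap of at least 1 bp with the gene widened by 5 kb. The table has no strand, so gene ends are called lower and upper by coordinate; strand came from the RefSeq promoter table where a gene had an entry. Local background was recomputed as pileup plus 1, divided by fold, minus 1. Intervals are 95% exact Clopper-Pearson, and ratios of 2 pileups use the exact conditional binomial interval. Tags are not independent molecules, so intervals cover counting error only. The groups follow the sample labels; depth was 15120031 and 15696147 tags. The members, the 7 classes and the lists were chosen with earlier results of these data known. Values were given for 16 keratins of defined epithelial role, the 10 of highest fold in each library and all with a region in 1 library alone. The window of 1 kb around gene ends was added after values were seen. The assignment was checked on simulated regions and against bedtools 2.31.1. Scripts ran in Python 3.11.15 with SciPy 1.17.1, pandas 2.3.3, matplotlib 3.10.9 and numpy 2.4.6.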

Additional observations from a re-analysis of the deposited data

How the results depend on the processing

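No paired analysis was possible because each group has 1 library. Of the values recomputed under the alternatives, 64 stayed within their counting interval or, for counts, within 1.5 times, and 28 did not. Keratin genes with a region numbered 12 in the lactate-labelled library and 11 in the untreated-labelled one with no widening, 19 and 16 with 1 kb, 11 and 9 at a fold of at least 5, 17 and 21 where -log10 p, recomputed from the pileup, reached 7, and 9 and 14 in equal lists of the strongest regions. Over all protein-coding genes the shares at these settings were 63.2% and 57.8%, 67.5% and 62.9%, 52.1% and 41.8%, 63.6% and 55.0%, and 49.5% and 48.1%. Keratin genes with a region in the lactate-labelled library alone and in the untreated-labelled library alone numbered 5 and 4 with no widening, 9 and 6 with 1 kb, 2 and 6 with 10 kb, 5 and 3 at a fold of at least 5, 2 and 6 at the -log10 p limit, and 3 and 8 in equal lists. The shares of all genes alone in a library were 10.1% and 4.70%, 8.93% and 4.28%, 7.80% and 3.69%, 15.0% and 4.73%, 12.8% and 4.21%, and 9.68% and 8.28%, larger for the lactate-labelled library at each of these settings. On chromosome 12 the shares were 33.3% and 25.9% with no widening, 25.9% and 18.5% at a fold of at least 5, and 18.5% and 29.6% in equal lists. On chromosome 17 they were 10.7% and 14.3% with no widening, 25.0% and 28.6% with 1 kb, 14.3% and 14.3% at a fold of at least 5, 21.4% and 35.7% at the -log10 p limit, and 14.3% and 21.4% in equal lists. Keratin regions overlapping the other library made up 66.7% and 42.9% in equal lists. Stricter limits and narrower windows keep fewer regions by construction, and the cause of the turned order between libraries was not tested. With 1 library per group no replicate was left out.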

Other observations

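Keratin pseudogenes, which are scattered over the genome, were outside the comparisons above. Of 152 keratin pseudogenes, 8 held a region inside the annotated pseudogene in the lactate-labelled library and 3 in the untreated-labelled library. Among them were 4 and 0 of 68 copies of KRT18, 2 and 1 of 52 copies of KRT8, and 2 and 1 of 8 copies of KRT17. These copies resemble their parent genes, so the reads are uncertain. The share over pseudogenes of all kinds was not counted, so these counts have no background beside them. The lactate-labelled list was also the longer one, with 50352 regions against 43680.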
